A study of Arabidopsis thaliana with 4 samples.

Results

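Genes known from sugar starvation, darkness or amino acid export were followed in Arabidopsis thaliana roots: DIN10, DIN2, BGAL4, AT3G15450, UMAMIT17 and UMAMIT20. They were taken by their locus identifiers, having been selected on earlier sight of their Cd ratios, and all 6 of 6 were found among the 1487 loci listed in 2 tables of gene models that differed with cadmium. The 4 groups were wild-type Col seedlings and the double mutant ein3eil1 (ein3-1 eil1-1), each without treatment and after 150 µM CdSO4 for 6 h, in seedlings 5 days old grown on MS medium, with 1 library per group. EIN3 and EIL1 are transcription factors through which ethylene acts in the nucleus. Neither was listed, so these values do not check the genotype. The labels enter the controls as untreated and give no mock treatment of 6 h, so effects of Cd and of elapsed time or transfer cannot be told apart. No difference below has a replicate check. Total reads were 16773595 to 19192279 per library, and intervals are 95% exact counting intervals unless another kind is named. They cover counting error only.

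Plant cells that run short of sugar shift from growth to the use of reserves. The kinase SnRK1 and its partner bZIP transcription factors, which bind DNA at ACGT cores, are central to this switch. The DIN (dark inducible) genes were named for their rise in leaves kept in the dark, and many of them are held low by sugar. Amino acids are broken down as a substitute fuel in starved tissue, and UMAMIT proteins carry amino acids across membranes, often outward. In roots, which depend on sugar sent from the shoot, these genes are commonly read as signs of carbon supply.

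The members did not move as a block. In Col, 5 of the 6 loci were at least 2-fold lower with Cd and 1, DIN2, was higher. In ein3eil1 only 3 of the loci were listed: DIN10 and BGAL4 were lower and DIN2 was higher. Of the models listed for Col, 42.4% were lower and 52.9% were higher under the same limits (2-fold, with 1 RPKM or more in either library), and for ein3eil1 these shares were 35.8% and 59.3%. Of all annotated protein-coding loci, 1.16% were listed as lower and 1.5% as higher in Col, and 1.25% and 2.07% in ein3eil1. RPKM is reads per kilobase of model, scaled to the total reads of the library. The genes were chosen with these responses known, so their counts are a description and nothing is read from them against those shares. A gene that is not listed has no value here: in the authors' deposited tables no log2 ratio lies between -1 and 1 and every FDR is low, so an absent model can have changed less or can have had too few reads.

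The sequences just upstream of 4 of the lower genes are shown because all of them hold ACGT cores, the letters that bZIP factors contact. Each is the 250 bases before the annotated gene start in TAIR10.1 (RefSeq), forward strand, 5′ to 3′. Capitals mark ACGT, the G-box CACGTG, which contains an ACGT, and the sugar-repressive element TTATCC, read as GGATAA on the reverse strand.
UMAMIT20, chr4:5238523-5238772: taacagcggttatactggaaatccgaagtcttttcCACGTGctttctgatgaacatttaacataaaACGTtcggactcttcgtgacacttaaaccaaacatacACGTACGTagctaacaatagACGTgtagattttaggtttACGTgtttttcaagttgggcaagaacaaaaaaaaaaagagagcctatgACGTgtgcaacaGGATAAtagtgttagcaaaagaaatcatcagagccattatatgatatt
UMAMIT17, chr4:5244615-5244864: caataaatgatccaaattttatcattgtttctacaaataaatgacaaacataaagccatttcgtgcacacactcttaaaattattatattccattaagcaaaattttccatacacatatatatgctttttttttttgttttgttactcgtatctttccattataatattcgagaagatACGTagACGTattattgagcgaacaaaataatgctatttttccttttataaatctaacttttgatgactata
AT3G15450, chr3:5212734-5212983: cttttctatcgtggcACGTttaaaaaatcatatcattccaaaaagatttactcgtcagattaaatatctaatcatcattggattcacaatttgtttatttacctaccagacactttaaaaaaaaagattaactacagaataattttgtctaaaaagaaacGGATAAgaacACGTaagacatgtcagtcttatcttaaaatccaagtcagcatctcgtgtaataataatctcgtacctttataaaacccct
DIN10, chr5:6833314-6833563: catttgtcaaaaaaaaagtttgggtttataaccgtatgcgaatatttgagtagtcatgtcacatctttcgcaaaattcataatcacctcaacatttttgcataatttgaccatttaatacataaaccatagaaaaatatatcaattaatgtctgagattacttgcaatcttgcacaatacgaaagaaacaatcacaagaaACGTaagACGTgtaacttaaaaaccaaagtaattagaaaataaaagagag

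Motifs were counted on both strands in a window from 250 bases before to 50 after the start of each gene, and the same window of 27443 protein-coding genes gives the background. UMAMIT20 had 7 ACGT cores, a number reached by 0.0255% of these windows. DIN10, AT3G15450 and UMAMIT17 had 2 each, and BGAL4 and DIN2 had 0, while 49.9% of all windows held at least 1. The G-box stood in the UMAMIT20 window alone among the 6, and in 7.68% of all windows. TTATCC was found once in DIN10 (after the start), AT3G15450 and UMAMIT20, and in 14.8% of all windows. The TATCCA element of sugar-starved cereal amylase genes was in none of the 6 and in 16.1% of all windows. For ATGTA, a core of EIN3 binding sites, DIN2 had 5 matches, some of them overlapping, and DIN10 and BGAL4 had 1 each. At least 1 was present in 56.4% of all windows and 5 or more in 0.798%. The shares for 7 ACGT cores and for 5 ATGTA matches were each taken at the largest count found among the 6 genes. They are therefore a description and not a test. All motif matches are letters in a window and show no binding.

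**Figure D1:**
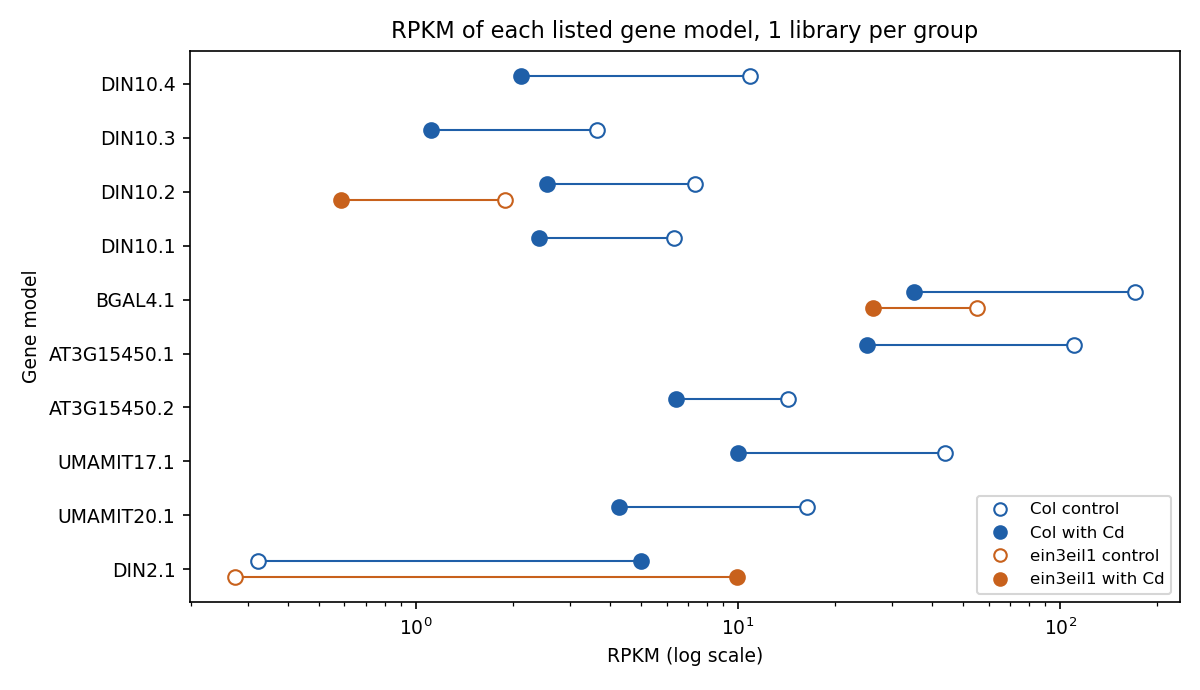
RPKM on a log scale for every listed transcript model of the 6 genes, with open circles for control and filled circles for Cd libraries of Col (blue) and ein3eil1 (orange). Each circle is 1 library. BGAL4 had the highest control level, 171 RPKM in Col, and DIN2 is the gene whose filled circles lie to the right of the open ones.

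BGAL4 encodes a beta-galactosidase of the cell wall and was the most abundant of the 6 in the untreated wild type. Its model (chromosome 5, 23004196 to 23008649, forward strand) had 171 RPKM without and 35.3 RPKM with Cd in Col. In ein3eil1 it had 55.1 RPKM without and 26.2 RPKM with Cd. The untreated Col library thus had the highest level, and the Cd libraries lay closer together than the controls.

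These BGAL4 values rest on 8190 and 1481 reads in Col and on 2343 and 1103 reads in ein3eil1. The level with Cd was 4.83-fold lower in Col (interval 4.57 to 5.11) and 2.1-fold lower in ein3eil1 (1.95 to 2.26). On the log2 scale the ratio in Col was the more negative, with a difference, Col minus ein3eil1, of -1.20 (95% normal counting interval -1.33 to -1.07). Without Cd the Col level was 3.1 times that of ein3eil1 (2.96 to 3.24), and with Cd it was 1.34 times (1.24 to 1.46). The genotype gap was thus smaller in the Cd libraries than in the controls. These levels come from separate tables, each scaled to its own library totals. Over the 280 models listed in both tables with reads in every library, the median log2 ratio of ein3eil1 over Col was 0.32 in the controls and 0.26 with Cd, against -1.63 and -0.43 for BGAL4.

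DIN10 belongs to the raffinose synthase family and was first known as a dark-induced gene. The locus (chromosome 5, 6833659 to 6836782, forward strand) was listed as 4 transcript models in Col, all lower with Cd. AT5G20250.4 had 10.9 RPKM without and 2.12 RPKM with Cd, from 575 and 98 reads, a 5.13-fold lower level (4.13 to 6.42). AT5G20250.3 had 3.66 and 1.11 RPKM, from 200 and 53 reads, 3.3-fold lower (2.43 to 4.55). Over all 4 models, control levels ran from 3.66 to 10.9 RPKM and levels with Cd from 1.11 to 2.55 RPKM. The models overlap in sequence and come from the same Col libraries, so they are not replicates of each other.

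For AT5G20250.2 the Col libraries gave 7.33 and 2.55 RPKM, from 385 and 117 reads, 2.88-fold lower (2.33 to 3.57). AT5G20250.1 gave 6.34 and 2.42 RPKM, from 345 and 115 reads, 2.62-fold lower (2.12 to 3.27). Summed over the 4 models, the locus went from 1505 to 383 reads, 3.43-fold lower (3.07 to 3.85). In ein3eil1 the model AT5G20250.2 alone was listed, with 1.89 RPKM without and 0.587 RPKM with Cd, from 88 and 27 reads. This was 3.22-fold lower (2.07 to 5.16), close to the ratio of the same model in Col.

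The difference of log2 ratios for AT5G20250.2, Col minus ein3eil1, was 0.16 with a normal counting interval from -0.53 to 0.85, so no difference could be detected with this many reads. Its level was lower in the mutant in both conditions: untreated Col had 3.87 times the level of untreated ein3eil1 (3.07 to 4.94), and with Cd the figure was 4.34 (2.84 to 6.86). Both DIN10 and BGAL4 were thus lower in untreated ein3eil1. Without a pseudocount the genotype gap stayed for DIN10 and narrowed for BGAL4. The DIN10 level in ein3eil1 with Cd was 0.587 RPKM, from 27 reads. With 1 RPKM added to both libraries, the difference of log2 ratios became -0.37 for DIN10 and -1.20 for BGAL4. How far the DIN10 gap stayed therefore depends on this setting. The DIN10 gap is that of 1 of 4 models, and how reads were divided between the models is not given in the sources used here. Among the 290 models in both tables, AT5G20250.2 had the 19th lowest ratio of ein3eil1 over Col without treatment and the 7th lowest with Cd, and BGAL4 the 28th and 70th lowest.

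The models of DIN10 did not keep the same shares in Col. AT5G20250.4 held 38.2% of the reads of the 4 models in the control (exact binomial interval 35.7 to 40.7) and 25.6% with Cd (21.3 to 30.3). AT5G20250.1 held 22.9% (20.8 to 25.1) without and 30.0% (25.5 to 34.9) with Cd. In TAIR10.1 the models AT5G20250.3 and AT5G20250.4 have the same lengths as in the deposited table, 2846 and 2753 bases. AT5G20250.1 and AT5G20250.2 are longer there, at 3011 and 2912 bases against 2836 and 2737 deposited. By the TAIR10.1 models, 96.7% of the exonic bases of AT5G20250.3 are also in AT5G20250.4. That model has 0 exonic bases that are in no other model, and it has the longest coding sequence, 2535 bases against 2250 for the other three. With this much overlap the shares depend on how the authors assigned reads.

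**Figure D2:**
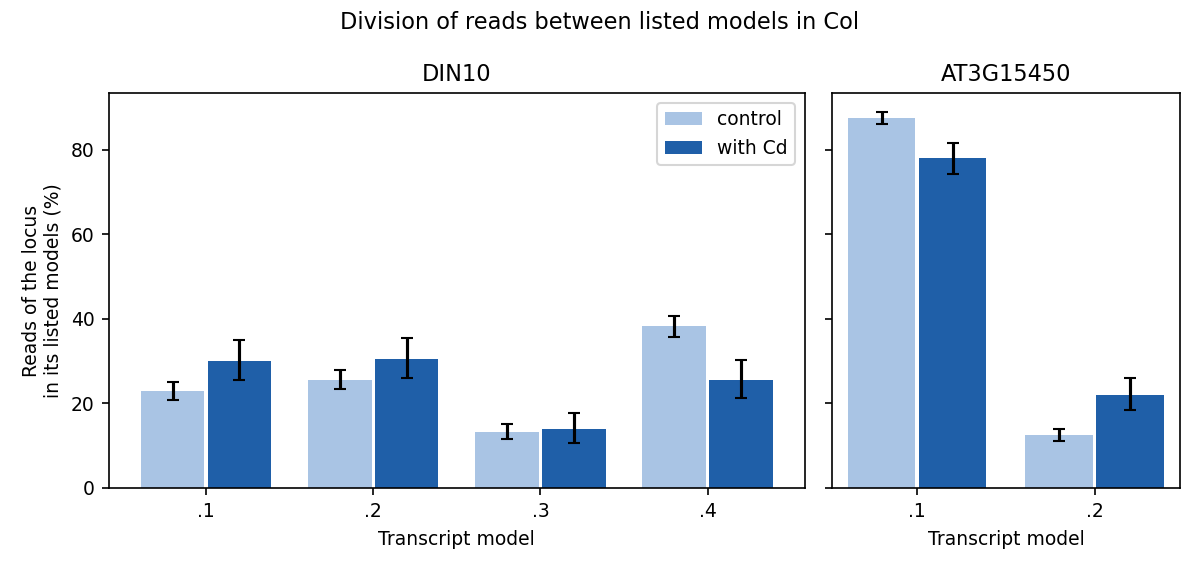
Share of the reads of a locus (percent, from 0) that each listed transcript model held in the Col libraries, control in light and Cd in dark blue, for DIN10 (left) and AT3G15450 (right). Error bars are 95% exact binomial intervals. AT5G20250.4 stood at 38.2% and 25.6% and AT3G15450.2 at 12.5% and 22.0%.

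AT3G15450 is described in the deposited table as an aluminium-induced protein with YGL and LRDR motifs, and it has been used as a marker of low sugar. It lies on chromosome 3 (5212984 to 5214121, forward strand) and was listed in Col alone, as 2 models. AT3G15450.1 had 110 RPKM without and 25.1 RPKM with Cd, from 2015 and 400 reads, which is 4.4-fold lower (3.95 to 4.91). AT3G15450.2 had 14.3 and 6.41 RPKM, from 288 and 113 reads, 2.23-fold lower (1.79 to 2.79). The log2 ratio of AT3G15450.2 was 0.98 above that of AT3G15450.1 (normal counting interval 0.63 to 1.33). All 951 exonic bases of AT3G15450.1 are also in AT3G15450.2, which has 100 bases of its own, so that reads in the shared part could be assigned to either. Summed over both models, the locus was 3.92-fold lower (3.56 to 4.33). The gene closest in coding sequence, AT4G27450, shares 70.1% of 749 aligned bases with it. AT4G27450 was listed in ein3eil1 and not in Col, with 23 RPKM without and 6.86 RPKM with Cd.

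The UMAMIT genes, which encode amino acid carriers of the nodulin MtN21 type, were listed in Col alone. UMAMIT17 (AT4G08300.1, chromosome 4, 5244891 to 5248342) had 43.9 RPKM without and 10 RPKM with Cd, from 1218 and 243 reads. Its level with Cd was 4.38-fold lower (3.81 to 5.05). UMAMIT20 (AT4G08290.1, chromosome 4, 5238906 to 5241034) had 16.4 and 4.26 RPKM, from 474 and 108 reads, 3.84-fold lower (3.11 to 4.77). The intervals of the 2 ratios overlap, though the level of UMAMIT17 was the higher in both libraries.

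In TAIR10.1 both genes lie on the forward strand with 3752 bases and 0 protein-coding genes between them. No other listed locus started within 20 kb of either, among 5 protein-coding loci annotated there for each, the partner included. They are neighbours but not close copies: the coding sequence closest to UMAMIT17 was that of SIAR1, with 78.4% identity over 1019 bases, and UMAMIT17 and UMAMIT20 matched over 319 bases with 65.8% identity. SIAR1 was listed in neither table. Among the other 45 UMAMIT loci, UMAMIT33 was lower in Col (37 and 5 reads, 6.47-fold, 2.54 to 21.1) and UMAMIT26 was higher (47 and 83 reads, 2.02-fold, 1.4 to 2.95). In ein3eil1, UMAMIT10 was listed as higher, with 1.02 RPKM in the control and 2.43 RPKM after Cd. Of 6 alternative settings, the call of UMAMIT33 was lost in 3 (pseudocount, 5 RPKM and an FDR of 1e-05), and those of UMAMIT26 and UMAMIT10 in 5, all but summed models. The setting that centres ratios on the median of listed models subtracts a positive value from every ratio. It can therefore remove higher calls but not lower ones.

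DIN2, also called BGLU30, encodes a beta-glucosidase of glycosyl hydrolase family 1 and ran the other way. Its model (AT3G60140.1, chromosome 3, 22216672 to 22220824, forward strand) had 0.324 RPKM without and 5.01 RPKM with Cd in Col. In ein3eil1 it had 0.275 RPKM without and 9.9 RPKM with Cd. Both control libraries were low, at 12 and 9 reads, and both Cd libraries were high, at 162 and 321 reads.

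The level of DIN2 with Cd was 15.4-fold higher in Col (8.6 to 30.5) and 36.1-fold higher in ein3eil1 (18.8 to 79.6). With 1 RPKM added to both libraries these became 4.54-fold and 8.56-fold, and with ratios centred on the median of listed models 7.41-fold and 16.1-fold. The difference of log2 ratios was -1.22 with a normal counting interval from -2.50 to 0.05, which holds 0 and is wide because of the few control reads. With Cd, ein3eil1 had 1.98 times the level of Col (1.63 to 2.4), and without Cd 0.847 times (0.315 to 2.19). DIN2 thus kept its direction in both genotypes, while its name groups it with the dark-induced genes that were lower.

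In sequence and in direction DIN2 stood beside another beta-glucosidase. Its closest coding sequence was that of BGLU28, known from sulfur limitation, with 79.0% identity over 1441 bases. BGLU28 went from 2 to 872 reads in Col and from 5 to 1772 reads in ein3eil1. BGLU27, which lies within 20 kb of DIN2, had 0.144 RPKM without and 1.09 RPKM with Cd in Col, from 5 and 33 reads. BGLU11 was 4.81-fold higher in Col (2.7 to 9.09) and 7.46-fold higher in ein3eil1 (3.55 to 18.1). Leaving DIN2 aside, 3 of 46 beta-glucosidase loci were higher and 0 lower in Col, and 2 were higher and 0 lower in ein3eil1. A further locus in each table, BGLU19 in Col and BGLU5 in ein3eil1, was listed below 1 RPKM in both libraries and is not in these counts. At a minimum of 5 RPKM the higher counts became 1 in Col and 1 in ein3eil1, and with the pseudocount that of Col became 2. Of all annotated protein-coding loci, 1.5% were listed as higher in Col and 2.07% in ein3eil1. The list was chosen with earlier results of these data known, so its counts are a description.

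**Figure D3:**
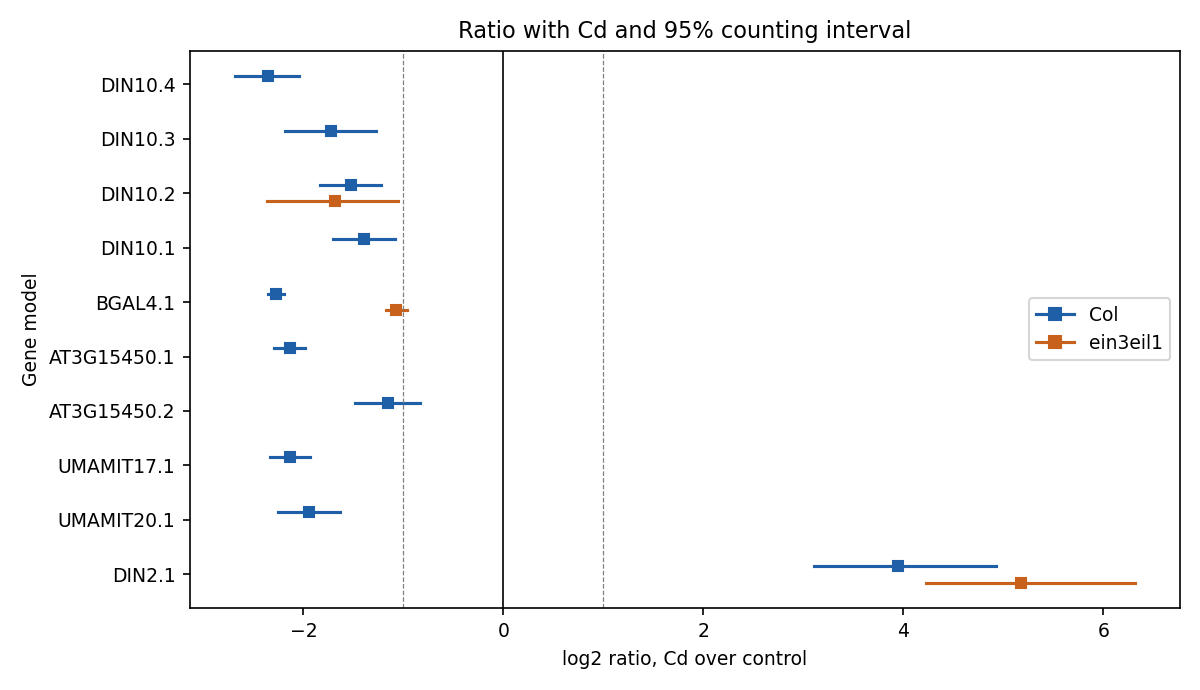
The log2 ratio of Cd over control for each listed model (squares) with its 95% counting interval (lines), for Col in blue and ein3eil1 in orange. Dashed lines mark a 2-fold change in either direction. The 9 Col models of 5 genes lie left of the line at -1 and DIN2 lies at 3.95 in Col and 5.17 in ein3eil1.

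Among the 358 lower models of Col, those of these genes ranked in control RPKM from 25th (BGAL4) to 270th (AT5G20250.3) and in the size of the ratio from 70th (AT5G20250.4) to 284th (AT3G15450.2). The median log2 ratio was -1.83 over the 10 listed models of the 6 genes and 1.06 over all 807 models listed for Col. Over the 9 lower models it was -1.94, against -1.46 over the 358. The genes were chosen with these ratios known, and models of DIN10 and of AT3G15450 overlap in sequence. These medians are therefore a description, and nothing is read from them against those of all listed models. BGAL4 alone took 1.53% of all reads of listed models in the Col control and 0.438% with Cd. For the 7 models absent from the mutant table, its reach matters: models 4-fold to 6-fold lower in ein3eil1 were listed from 29 control reads up, and those 2-fold to 2.5-fold lower from 59 reads up.

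**Figure D4:**
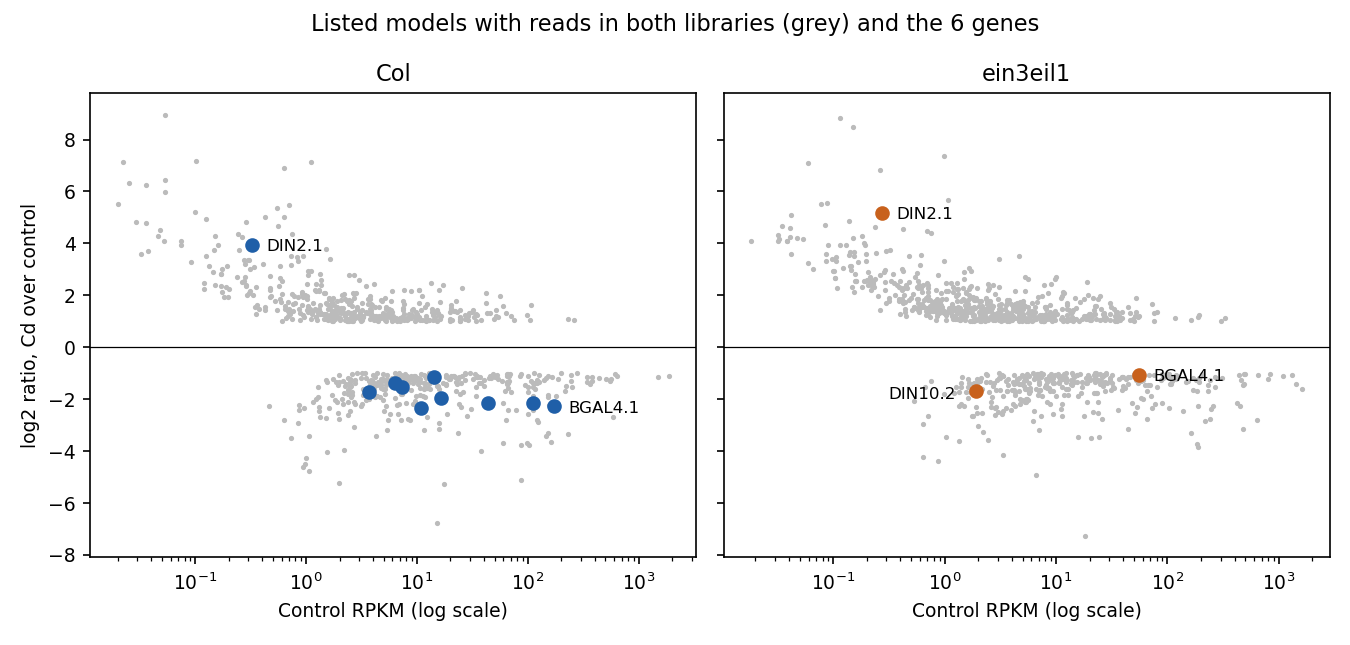
Control RPKM (log scale) against the log2 ratio of Cd over control for every listed model with reads in both libraries (grey), in Col (left) and ein3eil1 (right), with the models of the 6 genes in colour. The gap around 0 is the authors' limit on the ratio. In Col the lower models of the 6 genes spread from 3.66 to 171 RPKM, and DIN2 is the coloured point above 0.

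By pattern over the 4 libraries, the models nearest to BGAL4 were those of BXL2 and BXL1, beta-xylosidases that also act on the cell wall. Likeness was the distance between log2 RPKM values, each centred on its own mean, among 241 models at other loci with 10 or more reads in every library. BXL2 had 60.0 and 13.7 RPKM in Col and 18.6 and 8.2 RPKM in ein3eil1 (distance 0.225). BXL1 had 78.2 and 14.5 RPKM in Col and 28 and 13.9 RPKM in ein3eil1 (distance 0.287). Each was chosen for its likeness to BGAL4 over these same values, so its peak in the untreated Col library is no separate finding. AT1G80380 was the third nearest, at 0.526.

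Nearest to AT5G20250.2 of DIN10 were MEE14 (distance 0.335), the zinc finger gene AT5G22920 (0.373) and the methyltransferase gene AT4G26220 (0.493). AT5G22920 had 93.4 and 33.7 RPKM in Col and 31.2 and 10 RPKM in ein3eil1. For DIN2 the nearest were farther away: the resistance gene AT4G11170 (1.15), the ChaC-like gene AT5G26220 (1.24) and GSTU12 (1.62), a glutathione S-transferase. For models listed in Col alone there is a single ratio to compare, and many of the 357 models eligible lay near it. The nearest in log2 ratio were ACBP3, SEN1 and AT5G56100 to AT5G20250.4, while AT1G14185, BCE2 (DIN3) and CYP78A6 were nearest to both AT3G15450.1 and UMAMIT17. The BCE2 model meant here is AT3G06850.2, with 2.68 RPKM without and 0.62 RPKM with Cd. The smaller DIN3 ratio given below is that of another model, AT3G06850.1. AT1G21400, AT1G04330 and CBSX5 were nearest to UMAMIT20. TPS11, SWEET11 and AT1G80440 were nearest to AT5G20250.1, SWEET12, PIP1;5 and AT1G77405 to AT5G20250.3, and CLE4, AT4G01140 and DYL1 to AT3G15450.2.

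The other genes of the starvation response were described by lists written with earlier results of these data known, so their counts are not independent of the choice of the 6. Among all annotated protein-coding loci, 1.16% were listed as lower and 1.5% as higher in Col, and 1.25% and 2.07% in ein3eil1. These shares stand beside this list and those that follow, and nothing is read from the counts against them. Of 18 other starvation and dark-induced loci, 7 were lower and 0 higher in Col. SEN1, also called DIN1, a senescence marker, had 5.05 RPKM without and 0.922 RPKM with Cd. The other lower loci were the dormancy-associated DRM2 (3.63-fold, 3.31 to 3.99), DIN3 (2.94-fold), the trehalose-phosphate synthase genes TPS11 (2.62-fold) and TPS8 (2.16-fold), DIN11 (2.54-fold) and EXL4 (2.44-fold). In ein3eil1, 3 of these 18 were lower and 0 higher, and 0 of the 3 were among the 7 of Col. Over all loci, 105 were lower in both tables, 31.9% of those lower in Col and 29.6% of those lower in ein3eil1, and 3 loci are too few to set against these shares. EXL1 was 2.96-fold lower (2.58 to 3.41), EXO 2.09-fold and EXL2 2.05-fold, all of the EXORDIUM family, of which EXL1 is known for growth under low carbon. The difference between the genotypes was not tested, since a locus listed in 1 table has no value in the other.

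Genes of amino acid breakdown, the route that feeds the starved cell, were lower in 4 of 21 loci in Col and higher in none of those listed. AT1G21400 and DIN3, for subunits of the branched-chain keto acid dehydrogenase, were 3.8-fold (2.68 to 5.5) and 2.94-fold (2.29 to 3.81) lower. MCCA, for a carboxylase of leucine breakdown, had 7.18 and 2.08 RPKM in the control and Cd libraries, and GDH2, a glutamate dehydrogenase gene, had 5.79 and 2.43 RPKM. In ein3eil1 the listed locus was MGL, for a methionine-cleaving enzyme, 3.71-fold higher (3.32 to 4.15), a call lost with centring, which lowers every ratio. Of 11 genes for SnRK1 subunits and bZIP factors, 0 were listed in Col, and bZIP25 was higher in ein3eil1 (29 and 66 reads, 2.3-fold, 1.47 to 3.7), a call lost in 5 of the 6 alternative settings, all but summed models.

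The sucrose carriers SWEET12 and SWEET11 were 3.3-fold (2.78 to 3.94) and 2.61-fold (2.07 to 3.32) lower in Col, 2 of 16 loci for sugar transport and sucrose cleavage. In ein3eil1 the sucrose synthase gene SUS4 was 2.79-fold lower (2.5 to 3.12), the 1 listed locus. Leaving DIN10 aside, 0 of 14 raffinose pathway loci were listed in Col, while in ein3eil1 the galactinol synthase genes GOLS1 and GOLS3 were 2.18-fold and 2.09-fold higher and RS4 was 2.6-fold lower. The RS4 call was lost in 4 of the 6 alternative settings, and both galactinol synthase calls at 3-fold and with centring. With the pseudocount and at an FDR of 1e-05, 1 of these galactinol synthase calls remained. Beside BGAL4, the beta-galactosidase genes BGAL2 (2.81-fold) and BGAL12 (2.53-fold) were lower in Col, 2 of 16 loci, and BGAL8 (2.09-fold) was lower in ein3eil1, a call lost in 4 of the 6 settings. The count in Col became 0 at 3-fold and 1 with the pseudocount and at 5 RPKM. BGAL12 and BGAL2 are also the closest in coding sequence to BGAL4, with 80.5% and 79.6% identity.

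**Figure D5:**
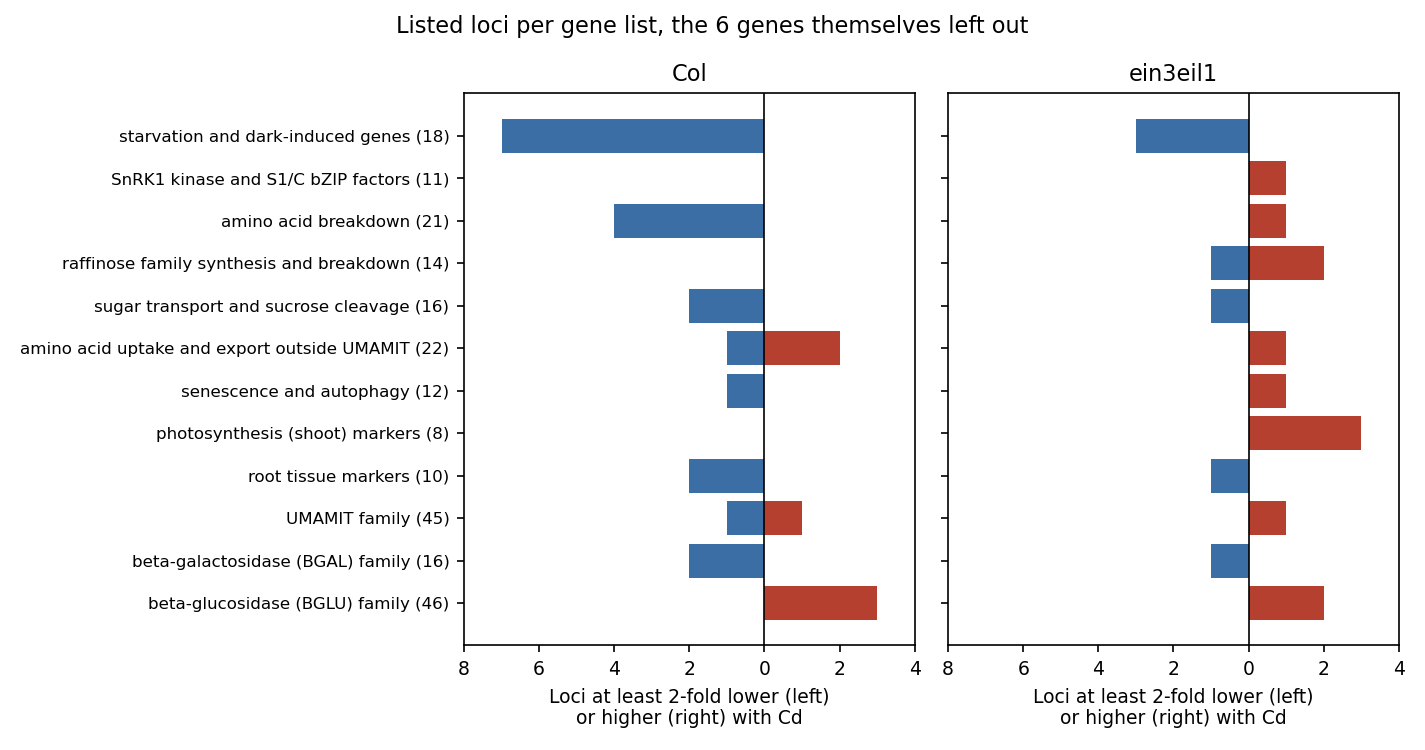
Number of loci in each gene list (number of loci in brackets, the 6 genes left out) that were listed as at least 2-fold lower (blue, to the left) or higher (red, to the right) with Cd in Col and ein3eil1. A locus can be in several lists. The longest bar is that of the starvation and dark-induced list in Col, 7 lower loci of 18.

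Amino acid carriers outside the UMAMIT family went both ways in Col. The uptake genes LHT1 and AAP6 were 2.8-fold (2.34 to 3.37) and 2.35-fold (1.96 to 2.83) higher and AAP3 was 2.16-fold lower (1.97 to 2.36), 3 of 22 loci. In ein3eil1 CAT5 was higher, from 4 to 33 reads. Of 12 senescence and autophagy loci, ATG8E was 2.15-fold lower in Col and NAC092, a senescence regulator, was 2.51-fold higher in ein3eil1. The NAC092 call was lost in 5 of the 6 settings and that of ATG8E in 2, and the calls of LHT1 and AAP6 were lost at 3-fold and with centring.

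Markers of tissues were listed in small numbers, so the root label could be checked only in part. The labels name root tip and primary root, and in 1 protocol shoots as well as roots. Of 8 photosynthesis genes, none was listed in Col, and in ein3eil1 3 were higher with Cd, among them RBCS1A at 20.7 and 46.9 RPKM. Of 10 root markers, CASP1 and CASP5 of the endodermis were lower in Col, at 198 and 98.8 RPKM and at 12.4 and 1.93 RPKM, and the xylem gene XCP2 was lower in ein3eil1. Fewer cells of a type and less RNA per cell cannot be told apart in whole-tissue RNA, and the part of these markers in the results above was not tested.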

How the data were processed

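RNA taken up in Trizol was reverse transcribed from random primers for Illumina HiSeq sequencing, per the labels' protocols. The authors deposited 1 table per genotype. Per the file headers these give read counts, RPKM, the log2 ratio of RPKM, a p-value and an FDR per gene model. Not given in the sources used here are aligner, strand setting, genome build and how reads were assigned to models. Deposited RPKM equals the authors' count over model length and 1 total per library, and was used for levels across both tables.

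Groups came from sample titles. Ratios were taken from RPKM without a pseudocount. With 1 library per group no test was made. Ratios have 95% Clopper-Pearson intervals, and differences of log2 ratios have normal intervals. The ratio intervals were checked on simulated data. A locus in a list is represented by its model with the most reads.

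The 6 genes and all lists were chosen with earlier results of these data known. The families were taken by symbol in the reference table. Named genes were every listed model of the 6 genes and, per list and table, up to 4 loci with the largest log2 ratio in size and 1 RPKM or more, with further listed loci of the starvation list named after their values were seen, as were BGLU19, BGLU5, AT4G27450, SIAR1 and BGLU27. All list entries were found in TAIR10.1. Coordinates of genes are those deposited. Of 1465 models compared, 1452 lay inside the TAIR10.1 gene of the same identifier when it was extended by 200 bases on each side. Of 1476 models with a TAIR10.1 transcript, 218 had the same start and end, so the upstream windows need not adjoin the deposited starts. Upstream sequences, exon lengths and closest coding sequences (blastn) are from the TAIR10.1 genome and its RefSeq annotation. The software was SciPy 1.17.1, pandas 2.3.3 and numpy 2.4.6 under Python 3.11.15, with matplotlib 3.10.9 for figures. Alternatives were another fold, minimum, pseudocount, centring, FDR limit and summed models.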

Additional observations from a re-analysis of the deposited data

How the results depend on the processing

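The count of 5 lower loci in Col held at 3-fold, with a pseudocount of 1 RPKM and at a minimum of 5 RPKM. It also held with models summed per locus and at an FDR of 1e-05. With ratios centred on the median of listed models it was again 5, but this setting could not reduce it. The genes were chosen with these ratios known, so a count that holds is no independent check. At 3-fold each locus stood by its model with the most reads, while AT5G20250.1 (2.62-fold), AT5G20250.2 (2.88-fold) and AT3G15450.2 (2.23-fold) fell below that limit. In ein3eil1 the count of 2 became 1 at 3-fold, 1 with the pseudocount and 1 at 5 RPKM. The difference of log2 ratios of DIN10 turned from 0.16 to -0.37 with the pseudocount, which weighs on its low level in ein3eil1. Those of BGAL4 and DIN2 kept their sign. Centring lowers every ratio by the median of listed models, 1.06 in Col and 1.16 in ein3eil1. These medians are positive because fewer listed models were lower than higher (358 lower of 807 in Col, 369 of 1001 in ein3eil1). They exceed 1 because no listed ratio lies between -1 and 1. A lower count thus cannot fall with centring, and small higher ratios must lose their call, so it is no check of either direction. Centring took the median of the 10 Col models from -1.83 to -2.89. Of 217 other loci in the lists without tissue markers, 6 were higher and 17 lower in Col, and 9 higher and 6 lower in ein3eil1. At 3-fold these became 3, 6, 4 and 0. The shares of all annotated protein-coding loci at 2-fold were 1.5% higher and 1.16% lower in Col, and 2.07% and 1.25% in ein3eil1. The lists were chosen with earlier results known, so nothing is read from their counts against these shares. The higher count of Col was 3 at 5 RPKM and 3 with centring. The higher count of ein3eil1 was 4 with the pseudocount, 4 at 5 RPKM, 3 with centring and 5 at the stricter FDR. At 3-fold the lower starvation loci went from 7 to 2 in Col and from 3 to 0 in ein3eil1, and those of amino acid breakdown in Col from 4 to 2. The call of CAT5 was lost with the pseudocount and at 5 RPKM, and that of AAP3 at 3-fold. The causes of these shifts in counts were not tested. DIN10 could not be compared between genotypes with summed models, since its listed models differ. No replicate could be left out, and depth limits DIN2, at 12 and 9 control reads.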
